A study of Homo sapiens with 13 samples.

Results

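The effect of silencing KDM1A, the lysine-specific histone demethylase also called LSD1, was examined by RNA sequencing in LNCaP-abl cells. These prostate cancer cells descend from the LNCaP line but grow without androgen, and they were kept in charcoal-stripped serum, which is depleted of steroids. The comparison set the library from cells given a KDM1A siRNA pool (siKDM1A) against the library from cells given a control siRNA (siControl2), 1 library each of 13 in all. Both were harvested 72 h after transfection, at passages between 53 and 60, and carried no other alteration that the labels name. The other 11 libraries came from the same line after siRNA against BRCA1, BRCA2, CTCF, EED, EZH2, FOXA1, FOXM1, MALAT1, PCAT1, RAD21 or SMARCA4, and they serve here as the spread of a gene between transfected cultures. An siRNA pool acts for a few days and may touch other transcripts, and siRNA sequences were not used here.

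KDM1A removes methyl groups from lysine 4 of histone H3, mostly inside a repressor complex with the CoREST scaffold RCOR1 and the histone deacetylases HDAC1 and HDAC2. In the androgen response of prostate cells it has been described both as a coactivator and as a corepressor. In many cancer cells it is needed for proliferation, and its inhibition is known for the release of differentiation genes.

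Values are FPKM, a level scaled to transcript length and library size, and differences are between values of log2(FPKM + 1). Of 22613 gene entries, 15780 were analysed, each with a mean of at least 0.5 FPKM over the 13 libraries. With 1 library per group no difference was tested, and no p-value is given. A gene is called 2-fold higher or lower where its difference reached 1 on the log2 scale. MALAT1 was not low in the library labelled siMALAT1, at 21.7 FPKM against 16.4 in siControl2, and BRCA2 was at 1.23 FPKM in the library labelled siBRCA2, against 3.25 in siControl2 and a median of 0.850 over the 11. Samples are bulk RNA, so fewer cells of a type and less RNA per cell cannot be told apart.

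KDM1A was at 4.55 FPKM in the siKDM1A library and 23.8 in siControl2, a difference of -2.16. Over the other 11 libraries it ran from 17.0 to 27.4 FPKM, with a median of 22.4, so the siKDM1A library stood below all of them. The other members of the CoREST complex were not low with it. Of 19 analysed complex members and partner proteins, 0 were 2-fold from the control in either direction, and their median difference was 0.07. RCOR1 was at 11.8 FPKM in siKDM1A and 11.6 in siControl2, HDAC1 at 93.6 in siKDM1A and 91.1 in siControl2, and HDAC2 at 20.5 in siKDM1A and 21.9 in siControl2. The largest difference on this list was that of KDM1B, named here as a relative of KDM1A and not as a CoREST subunit. KDM1B, the only other flavin-dependent histone demethylase, was at 24.4 FPKM in siKDM1A and 13.9 in siControl2 (0.77). It lay within the 8.90 to 31.3 FPKM of the other libraries. Of 21 JmjC-type demethylases 0 were 2-fold different, with a median of 0.24 and the H3K9 demethylase PHF8 highest at 0.53. Among 19 methyltransferases of H3K4 and H3K9 and their partners 0 were 2-fold different. SMYD3 was the lowest, at 29.6 FPKM in siKDM1A and 52.1 in siControl2 (-0.79), below the 31.4 to 96.6 FPKM of the other libraries.

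Across all genes, 119 were 2-fold higher in siKDM1A than in siControl2 (0.754% of those analysed) and 244 were 2-fold lower (1.55%). The median difference of all genes was 0.0076. Fewer differed as much from the other knockdowns. Of these, 30 of the higher genes were also 2-fold above the median of the other 11 libraries (0.19% of all genes), and 58 of the lower genes were 2-fold below it (0.368%). Of the 244 lower genes, 82 lay above the median of the other 11, and of the 119 higher genes, 7 lay below it. A symbol that can be described was lacking for 54 of the higher and 54 of the lower genes. Against the median of the other 11 libraries alone, 49 genes were 2-fold higher (0.311%) and 87 were 2-fold lower (0.551%). The siKDM1A library was the highest of 13 for 1070 genes (6.78%) and the lowest for 1310 (8.3%).

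**Figure D1:**
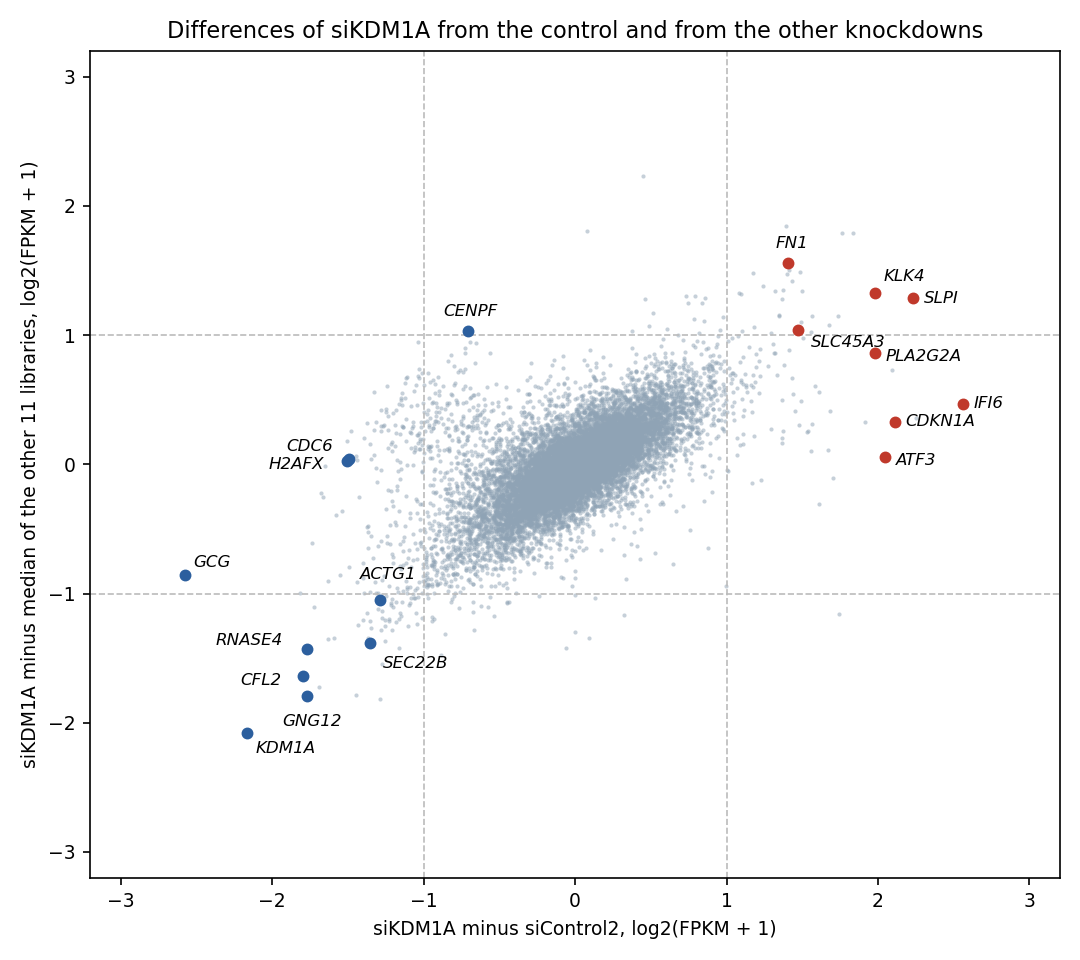
Difference of the siKDM1A library from siControl2 (horizontal axis) and from the median of the other 11 siRNA libraries (vertical axis), both on the log2(FPKM + 1) scale, for the genes analysed. Each grey point is a gene, dashed lines mark 1 and -1, coloured points are named genes, and 5 genes beyond 3.2 on either axis are not shown. KDM1A, CFL2 and GNG12 lie low on both axes, KLK4, SLPI and FN1 high on both, while CDC6 and H2AFX are low and CDKN1A and ATF3 high on the horizontal axis only.

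The genes that set this library apart from every other were mostly lower ones. Below all 12 other libraries by at least 1 log2 unit were 5 genes (0.0317%), and 1 was above them by as much (0.00634%), the unnamed assembly entry XLOC_007506. XLOC_007506 was at 3.84 FPKM in siKDM1A, 0.841 in siControl2 and at most 1.01 elsewhere. It passed the filter on mean level only because the siKDM1A value counts in that mean, so no meaning is drawn from it. Besides KDM1A, the 5 lower genes were CFL2, SEC22B, GOLT1B and YME1L1. CFL2, the muscle-type cofilin that severs actin filaments, was at 6.25 FPKM in siKDM1A, 24.2 in siControl2 and between 15.5 and 29.3 elsewhere (-1.80 from the control). SEC22B, a SNARE protein of vesicles between endoplasmic reticulum and Golgi, was at 33.5 FPKM in siKDM1A, 87.1 in siControl2 and between 73.1 and 125 elsewhere (-1.35). GOLT1B, a Golgi transport protein, was at 3.61, against 9.63 in siControl2 and 8.45 to 15.97 elsewhere (-1.21). YME1L1, a protease of the mitochondrial inner membrane, was at 14.7, against 33.8 in siControl2 and a narrow 30.7 to 39.0 elsewhere (-1.15). For each of these 4 genes the control lay inside the range of the other 11 libraries.

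Further large decreases also had siKDM1A as the lowest library, but by less than 1 log2 unit. GNG12, a G protein gamma subunit, was at 7.04 FPKM in siKDM1A and 26.4 in siControl2 (-1.77), with 12.3 to 36.002 in the other libraries. RNASE4, a secreted ribonuclease, was at 0.904 FPKM in siKDM1A and 5.50 in siControl2 (-1.77), with 2.41 to 11.97 elsewhere. Its neighbour ANG, which encodes angiogenin and shares its promoter and first exons with RNASE4, was at 6.96 FPKM in siKDM1A and 8.94 in siControl2 (-0.32). Reads of this pair can be split between the genes by the estimation, so the difference between them is uncertain. NXPE1 was at 5.79 FPKM in siKDM1A and 20.9 in siControl2 (-1.69), and CISD2, an iron-sulfur protein of the endoplasmic reticulum and mitochondria, at 3.65 in siKDM1A and 11.5 in siControl2 (-1.43). MARVELD1 was at 5.40 FPKM in siKDM1A and 15.9 in siControl2 (-1.40), and ACSL4, an acyl-CoA synthetase with a preference for arachidonic acid, at 2.96 in siKDM1A and 9.43 in siControl2 (-1.40). In all 6 of the genes with a lower value in this paragraph other than ANG, siKDM1A was the lowest library of 13. For MARVELD1 the siFOXM1 library was close, at 6.17 FPKM. For ACSL4 the control lay above each of the other 11 libraries.

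The glucagon gene GCG differed by -2.58, at 1.96 FPKM in siKDM1A and 16.6 in siControl2. It spread widely over the other libraries, from 1.18 to 30.6 FPKM, and 3 libraries were lower than siKDM1A. ABP1, an older symbol of the diamine oxidase gene AOC1, was at 4.20 FPKM in siKDM1A and 13.1 in siControl2 (-1.44) and reached 291 FPKM in siFOXA1. Further entries met the rule for the largest changes but rest on values near 0. VTRNA1-2 and VTRNA1-3, short vault RNAs, were listed at 0 in siKDM1A and at 28.0 FPKM in siControl2. They were also listed at 0 in other libraries, VTRNA1-2 in 3 and VTRNA1-3 in 1. SERF1A, which has a near-identical copy, and LINC00339 were near 0 in siKDM1A, against 8.33 and 1.81 FPKM in siControl2, and each was near 0 in other libraries too. RPL21, a ribosomal protein gene with many processed copies, was at 21.8 FPKM in siKDM1A and near 0 in siControl2, and PLGLB2, also part of a family of copies, at 2.60 FPKM in siKDM1A and 0.0625 in siControl2. No meaning is drawn from these.

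Some further genes were chosen after their values were seen. LMAN1, a cargo receptor between endoplasmic reticulum and Golgi, was at 15.9 FPKM in siKDM1A and 40.5 in siControl2 (-1.30), with 26.8 to 47.1 in the other libraries. RDX, which links actin filaments to the cell membrane, was at 10.7 FPKM in siKDM1A and 27.4 in siControl2 (-1.28), and CCDC47, a protein of the endoplasmic reticulum, at 37.6 in siKDM1A and 87.9 in siControl2 (-1.20). The prostatic acid phosphatase gene ACPP was at 27.6 FPKM in siKDM1A and 71.8 in siControl2 (-1.35), but at 27.7 in siBRCA2 as well.

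**Figure D2:**
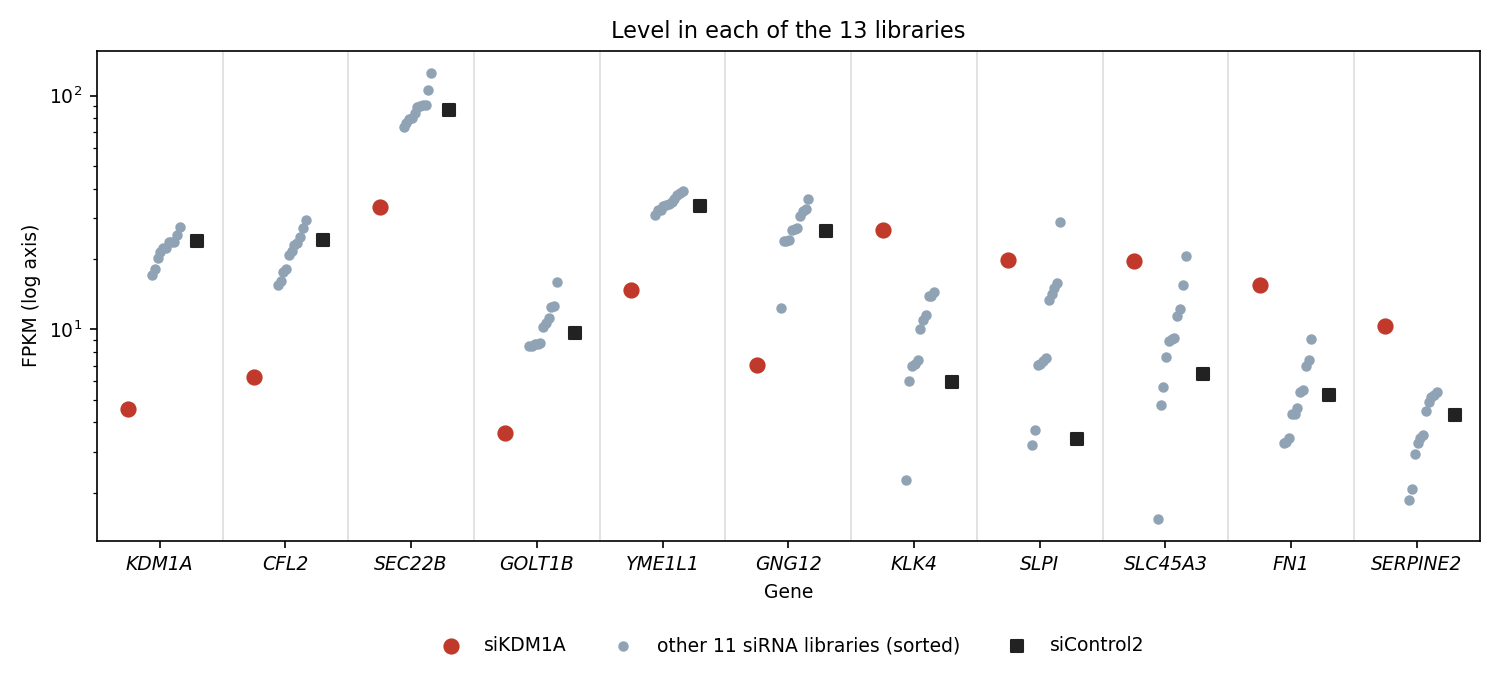
FPKM of 11 genes on a log axis, with the siKDM1A library in red at the left of each panel, the other 11 siRNA libraries in grey sorted by value, and siControl2 as a black square at the right. The 6 genes on the left are lowest in siKDM1A. Of the 5 on the right, KLK4, FN1 and SERPINE2 are highest in siKDM1A, while siFOXM1 is higher for SLPI and siEZH2 for SLC45A3.

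Genes of the androgen response were among the largest increases. SLC45A3, which encodes the prostate membrane protein prostein, was at 19.7 FPKM in siKDM1A and 6.44 in siControl2 (1.47), and only siEZH2 was higher, at 20.7. KLK4, a kallikrein serine protease of the prostate, was at 26.5 FPKM in siKDM1A and 5.98 in siControl2 (1.98), with 2.27 to 14.5 elsewhere. KLK4 is not on the list of androgen-induced genes used here, on which SLC45A3 had the highest difference. On that list, 2 of 20 analysed members were 2-fold higher, against 0.754% of all genes, and 0 were 2-fold lower. Above the control were 16 of 20, with a median of 0.27 against 0.0076 over all genes, and 15 of 20 lay above the median of the other 11 libraries.

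The mean level of these 20 genes was 4.23 on the log2 scale in siKDM1A and 3.93 in siControl2. It ran from 3.73 to 4.19 over the other libraries, so siKDM1A was the highest of 13, though by little. The protease gene TMPRSS2 was at 34.8 FPKM in siKDM1A and 19.4 in siControl2 (0.81), and the sorbitol dehydrogenase gene SORD at 164 in siKDM1A and 104 in siControl2 (0.66), both within the range of the other libraries. FKBP5, a cochaperone of steroid receptors, was at 18.6 FPKM in siKDM1A and 16.8 in siControl2 (0.14). It was the highest of 13 libraries, with 4.61 to 16.6 FPKM over the other 11. The lowest members were HERC3, at 4.88 FPKM in siKDM1A and 8.95 in siControl2 (-0.76), and MPHOSPH9, at 6.27 in siKDM1A and 10.2 in siControl2 (-0.62).

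Of 9 kallikrein family entries in the files, of 16 listed, 3 passed the filter on low values: KLK4, KLK14 and KLK7. KLK14 was at 1.31 FPKM in siKDM1A and 0.529 in siControl2 (0.60), the highest of 13 libraries, and KLK7 at 1.08 in siKDM1A and 0.71 in siControl2 (0.28). The classical androgen targets KLK2 and KLK3 were below the filter and are given as levels only. KLK2 was at 1.70 FPKM in siKDM1A, 0.214 in siControl2 and at most 0.714 elsewhere. KLK3, the prostate-specific antigen gene, was at 0.386 FPKM in siKDM1A, 0.0513 in siControl2 and at most 0.524 elsewhere. KLK15 was at 0.302 FPKM in siKDM1A, near 0 in siControl2 and at most 0.206 elsewhere. Levels were highest in siKDM1A for KLK2, KLK4, KLK14 and KLK15, and not for the other 5 entries.

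Androgen-repressed genes had differences of both signs. Of 9 analysed, 0 were 2-fold higher and 1 was 2-fold lower, and the median was -0.35 from the control and 0.07 from the other 11 libraries. The kappa opioid receptor gene OPRK1 was at 37.2 FPKM in siKDM1A and 75.6 in siControl2 (-1.004), with 23.6 to 104 elsewhere. UGT2B11, a glucuronidating enzyme gene with close relatives, was at 5.51 FPKM in siKDM1A and 2.33 in siControl2 (0.97). The glucocorticoid receptor gene NR3C1 was at 2.51 FPKM in siKDM1A and 5.999 in siControl2 (-0.99), but its median over the other 11 was 1.65, so its low value was shared.

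SLPI, a secreted inhibitor of leukocyte proteases made by epithelia, differed by more than KLK4, though by less than the interferon-stimulated gene IFI6. It was at 19.7 FPKM in siKDM1A and 3.41 in siControl2 (2.23), and at 3.21 to 28.8 elsewhere, where only siFOXM1 was higher. Of 13 analysed secreted defence and trefoil genes it was the only one 2-fold higher, and the list median was 0.16. The trefoil peptide gene TFF3 was at 14.2 FPKM in siKDM1A and 6.71 in siControl2 (0.98). TFF1 was at 7.38 FPKM in siKDM1A and 6.88 in siControl2 (0.09), below its median of 20.3 over the other libraries. AGR2, a disulfide isomerase of mucin-secreting cells, was at 1.30 FPKM in siKDM1A and 2.66 in siControl2 (-0.67), the lowest of 13.

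The remaining large increases came from varied functions. FN1, the matrix protein fibronectin, was at 15.5 FPKM in siKDM1A and 5.24 in siControl2 (1.40), above the 3.27 to 9.13 FPKM elsewhere. SERPINE2, an extracellular protease inhibitor chosen after its value was seen, was at 10.3 FPKM in siKDM1A and 4.31 in siControl2 (1.09), above 1.86 to 5.38 elsewhere. The kinesin motor gene KIF5C was at 4.29 FPKM in siKDM1A and 0.655 in siControl2 (1.68), MUSTN1 at 5.93 in siKDM1A and 1.61 in siControl2 (1.41), and the glycosyltransferase gene GALNT7 at 12.4 in siKDM1A and 4.19 in siControl2 (1.37). For these 5 genes siKDM1A was the highest of 13 libraries. The secreted phospholipase PLA2G2A was at 144 FPKM in siKDM1A and 35.7 in siControl2 (1.98), but at 662 in siFOXA1. The phospholipid-modifying enzyme gene RARRES3, now named PLAAT4, was at 4.89 FPKM in siKDM1A and 0.927 in siControl2 (1.61), and APOL3 at 4.91 in siKDM1A and 1.09 in siControl2 (1.5001). Both were highest in siFOXM1, the library with the highest interferon-stimulated genes. DNASE1L3, a secreted nuclease, was at 3.87 FPKM in siKDM1A and 0.645 in siControl2 (1.57) and at 8.79 in siFOXA1.

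The luminal epithelial markers KRT8, KRT18, CDH1, EPCAM and HOXB13 were expressed in both libraries. Of these, EPCAM had the lowest level, at 37.7 FPKM in siKDM1A and 45.1 in siControl2. The luminal marker KLK3 was below the filter, at 0.386 FPKM in siKDM1A and 0.0513 in siControl2. KRT5 and TP63, markers of basal prostate cells, had no entry used here, and KRT14 was listed at 0 in siKDM1A and at 0.0046 FPKM in siControl2. Of 18 fibroblast, endothelial and leukocyte markers listed, only 7 had an entry, and 6 were analysed. Of these 6, 0 were 2-fold different, with a median of -0.01. COL1A1 was at 0.848 FPKM in siKDM1A and 1.33 in siControl2, PECAM1 at 0.840 in siKDM1A and 0.713 in siControl2, and PTPRC at 0.783 in siKDM1A and 0.946 in siControl2. On the luminal list 1 of 25 members was 2-fold lower, 0 were 2-fold higher, and the median was 0.03. That member, KRT19, was at 0.597 FPKM in siKDM1A and 2.71 in siControl2 (-1.21). It ran from 0.125 to 17.2 FPKM over the other libraries, and siBRCA1, siEZH2 and siSMARCA4 were lower than siKDM1A. KRT18 was at 90.6 FPKM in siKDM1A and 136 in siControl2 (-0.58) and HOXB13, a prostate homeobox factor, at 77.6 in siKDM1A and 121 in siControl2 (-0.64), both the lowest of 13 libraries. The membrane protease gene ST14 was at 56.7 FPKM in siKDM1A and 36.5 in siControl2 (0.62).

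Of 20 mesenchymal genes listed 10 had an entry, and of 30 neuroendocrine and neuronal genes 18 had one. FN1 was the only 1 of 7 analysed mesenchymal genes that was 2-fold higher, and VIM was at 2.09 FPKM in siKDM1A and 1.15 in siControl2 (0.52). Of 8 analysed neuroendocrine and neuronal genes, 1 was 2-fold lower, 0 were 2-fold higher, and the median was -0.30. ENO2, the neuronal enolase, was at 23.2 FPKM in siKDM1A and 54.6 in siControl2 (-1.20), below the 29.8 to 54.6 elsewhere. The mean level of the 8 genes was 2.04 in siKDM1A and 2.39 in siControl2, and 2.11 to 2.43 elsewhere, the lowest of 13. REST, the repressor of neuronal genes that recruits CoREST, was at 10.7 FPKM in siKDM1A and 10.3 in siControl2 (0.06). Of 12 genes named for release by KDM1A inhibition in leukaemia cells, only 4 had an entry. Of these 4, CEBPA and LYZ passed the filter, at 0.17 and 0.20 from the control.

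**Figure D3:**
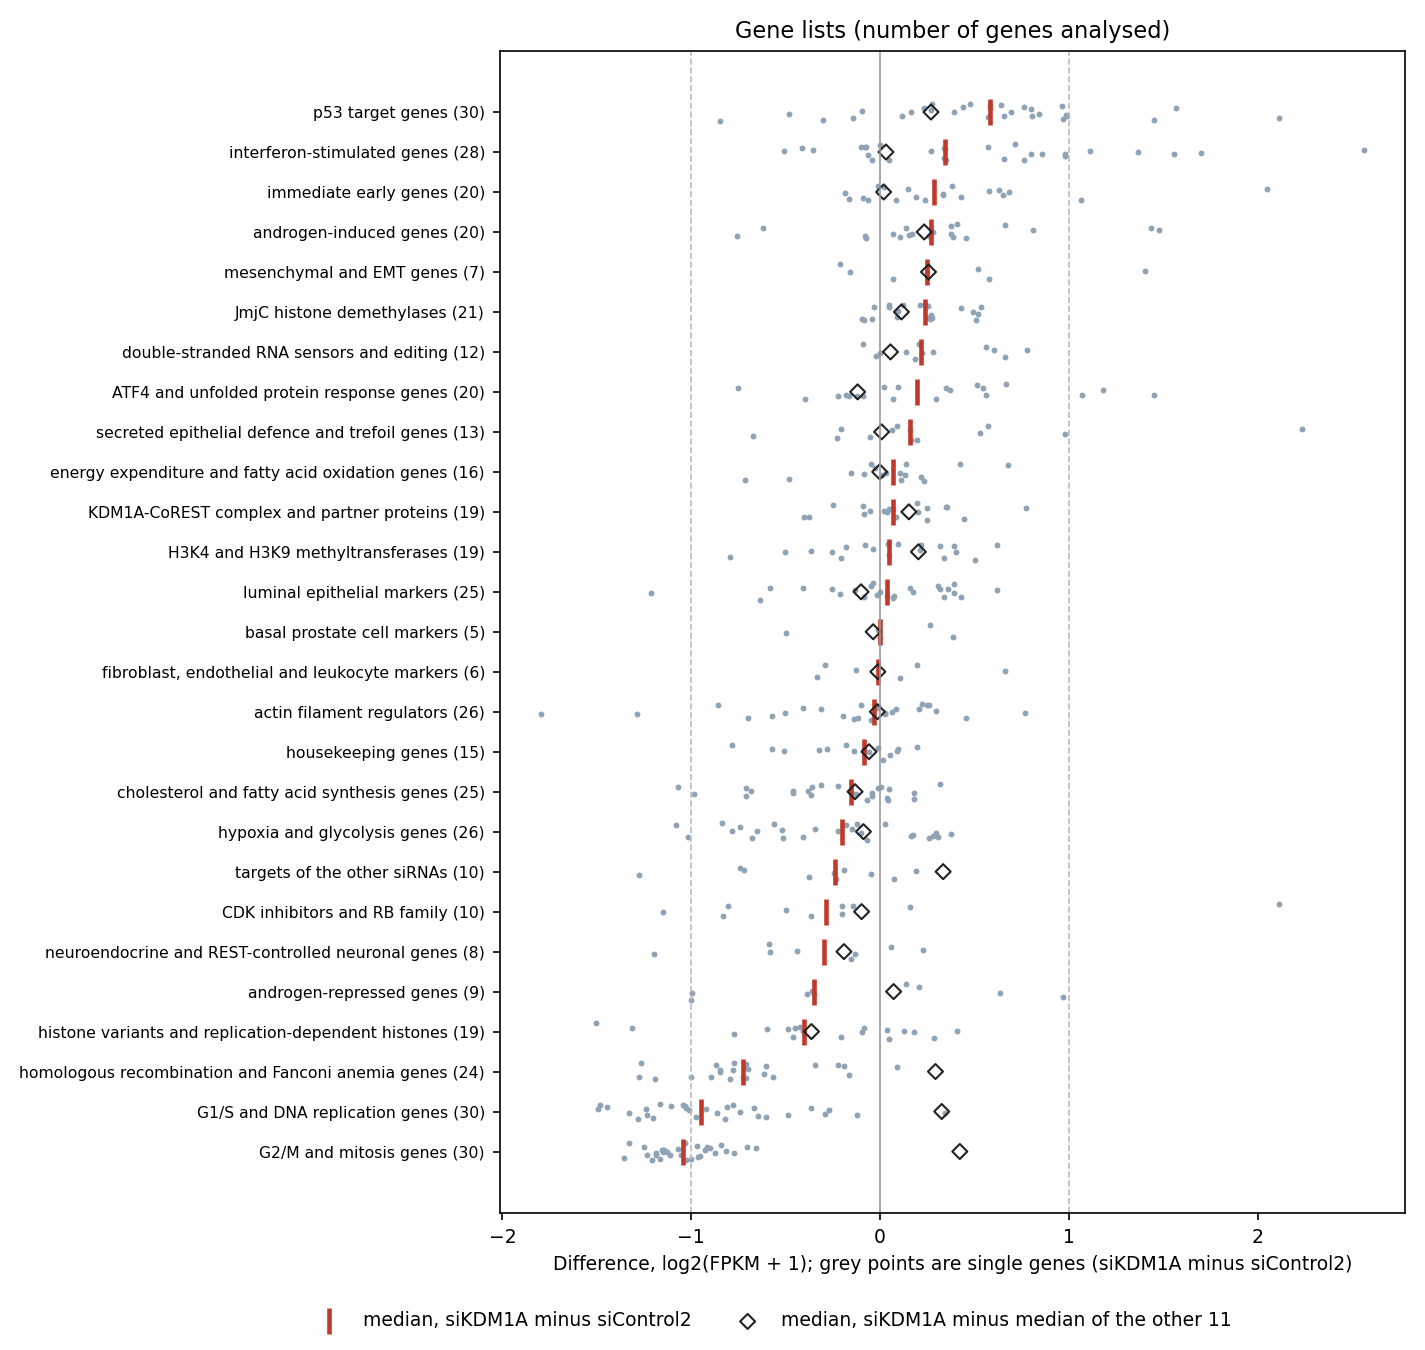
Difference of the siKDM1A library from siControl2 on the log2(FPKM + 1) scale for the 27 gene lists with at least 5 analysed members. Grey points are genes, red bars the list medians, and open diamonds the medians of the difference from the other 11 libraries. The G2/M, G1/S and recombination lists have bars between -1.04 and -0.72 and diamonds above 0, while bars and diamonds of the androgen-induced and histone lists lie on the same side.

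Cell division genes were lower than in the control as a group, yet higher than in most other knockdowns. Of 30 G2/M genes, 17 were 2-fold lower and 0 higher, with a median of -1.04 and each of the 30 below the control. Of 30 G1/S and replication genes 14 were 2-fold lower and 0 higher, with a median of -0.95, and of 24 recombination and Fanconi anemia genes 4 were 2-fold lower and 0 higher, with a median of -0.72. Of the 84 distinct genes on these lists, 35 were 2-fold lower, against 1.55% of all genes. From the median of the other 11 libraries the G2/M median was 0.42, that of G1/S genes 0.33 and that of recombination genes 0.29, and all 30 G2/M genes lay above it. The mean G2/M level was 3.72 in siKDM1A and 4.76 in siControl2, and 1.57 to 4.43 over the other libraries. The control was therefore the highest of 13 libraries, and what part that library itself has in these differences was not tested.

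TTK, a spindle checkpoint kinase, was at 4.78 FPKM in siKDM1A and 13.8 in siControl2 (-1.35), and UBE2C, a ubiquitin-conjugating enzyme of mitotic exit, at 23.2 in siKDM1A and 59.8 in siControl2 (-1.33). The kinetochore gene NUF2 was at 9.61 FPKM in siKDM1A and 24.2 in siControl2 (-1.25), HMMR at 15.7 in siKDM1A and 38.3 in siControl2 (-1.23), the anaphase activator CDC20 at 27.8 in siKDM1A and 64.5 in siControl2 (-1.18) and the mitotic kinase PLK1 at 15.7 in siKDM1A and 36.3 in siControl2 (-1.16). CENPF and MKI67 differed least on the list, by -0.71 and -0.66. In S phase, the licensing factor CDC6 was at 7.81 FPKM in siKDM1A and 23.8 in siControl2 (-1.49), the ribonucleotide reductase subunit RRM2 at 14.1 in siKDM1A and 41.1 in siControl2 (-1.48), and thymidylate synthase TYMS at 9.74 in siKDM1A and 26.003 in siControl2 (-1.33). The uracil glycosylase UNG was the exception among G1/S genes, at 21.8 FPKM in siKDM1A and 17.0 in siControl2 (0.35), the highest of 13 libraries. BRCA1 led the recombination list at 3.99 FPKM in siKDM1A and 11.1 in siControl2 (-1.28), and BARD1, its partner, was at 19.6 in siKDM1A and 18.3 in siControl2 (0.09).

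Promoters of some of these genes are shown, and the shares of letters below cover every listed gene with a window, whatever its difference. The shares are thus a property of the lists and not a result of this knockdown. CHR elements and CCAAT boxes are known for driving G2/M genes, and E2F sites for G1/S genes. Windows of 250 bases before to 50 after each start, from RefSeq on GRCh38.p14, were found for 25 of 30 G2/M and 25 of 30 G1/S genes, 1 per gene. The windows are NUF2 at chr1:163321704-163322003, HMMR at chr5:163460382-163460681, CDC20 at chr1:43358731-43359030, PLK1 at chr16:23678639-23678938, CDC6 at chr17:40287629-40287928 and TYMS at chr18:657403-657702, all on the plus strand. In the lines for NUF2, HMMR, CDC20 and PLK1 capitals mark CHR letters (TTTGAA or TTCGAA) and CCAAT on either strand, and for CDC6 and TYMS the E2F letters on either strand.
NUF2: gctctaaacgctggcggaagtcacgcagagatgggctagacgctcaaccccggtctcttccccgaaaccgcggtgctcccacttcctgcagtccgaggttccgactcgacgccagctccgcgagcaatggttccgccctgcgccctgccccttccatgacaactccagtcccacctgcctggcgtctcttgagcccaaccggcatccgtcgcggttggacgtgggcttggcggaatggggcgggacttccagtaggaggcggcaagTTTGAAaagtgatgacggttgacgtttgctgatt
HMMR: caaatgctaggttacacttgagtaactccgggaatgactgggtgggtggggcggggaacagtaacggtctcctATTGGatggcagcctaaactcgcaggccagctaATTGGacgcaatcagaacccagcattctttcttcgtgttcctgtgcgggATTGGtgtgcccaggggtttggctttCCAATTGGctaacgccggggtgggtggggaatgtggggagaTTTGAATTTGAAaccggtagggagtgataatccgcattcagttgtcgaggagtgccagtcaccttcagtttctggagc
CDC20: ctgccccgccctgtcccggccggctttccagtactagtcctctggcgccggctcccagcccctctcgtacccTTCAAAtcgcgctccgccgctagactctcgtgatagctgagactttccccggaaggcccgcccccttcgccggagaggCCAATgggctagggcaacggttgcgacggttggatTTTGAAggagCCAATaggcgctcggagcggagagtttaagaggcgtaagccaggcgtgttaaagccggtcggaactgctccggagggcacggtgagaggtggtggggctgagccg
PLK1: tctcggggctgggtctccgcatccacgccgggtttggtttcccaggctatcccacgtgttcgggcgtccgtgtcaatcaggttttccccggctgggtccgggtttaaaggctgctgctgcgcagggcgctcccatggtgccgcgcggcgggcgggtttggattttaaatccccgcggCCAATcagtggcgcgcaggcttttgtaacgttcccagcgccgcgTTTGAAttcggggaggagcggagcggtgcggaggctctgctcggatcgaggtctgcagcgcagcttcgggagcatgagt
CDC6: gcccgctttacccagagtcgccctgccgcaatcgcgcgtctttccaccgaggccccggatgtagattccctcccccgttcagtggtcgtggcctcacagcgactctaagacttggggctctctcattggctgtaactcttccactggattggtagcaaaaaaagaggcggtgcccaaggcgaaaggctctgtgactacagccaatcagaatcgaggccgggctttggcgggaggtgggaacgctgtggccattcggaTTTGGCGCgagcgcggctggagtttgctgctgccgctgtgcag
TYMS: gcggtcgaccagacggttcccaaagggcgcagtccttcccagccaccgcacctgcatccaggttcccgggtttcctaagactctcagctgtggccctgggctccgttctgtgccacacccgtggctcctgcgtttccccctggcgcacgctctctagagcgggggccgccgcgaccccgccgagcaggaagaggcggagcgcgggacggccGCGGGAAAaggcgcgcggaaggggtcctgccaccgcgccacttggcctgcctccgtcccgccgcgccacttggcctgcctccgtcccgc
The CHR letters were in 18 of 25 G2/M windows (72%), 2 of 25 G1/S windows (8%) and 16.6% of 27305 windows of all genes. CCAAT was in 18 of 25 G2/M windows (72%), 15 of 25 G1/S windows (60%) and 35.7% of all. The E2F letters TTTGGCGC, TTTCCCGC, TTTCGCGC or TTTGCCGC were in 15 of 25 G1/S windows (60%), 3 of 25 G2/M windows (12%) and 3.33% of all. The half-site AGAACA of the androgen response element was in 3 of 21 windows of androgen-induced genes (14.3%) and 14.9% of all. In the HMMR window a pair of CHR letters abut, and one CCAAT match overlaps its reverse. These are matches of letters, not bound sites, and the libraries hold no measure of binding.

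p53 target genes were higher as a group. Of 30 members, 3 were 2-fold higher and 0 lower, against 0.754% of all genes, with a median of 0.58 from the control and 0.27 from the other 11 libraries. Above the control were 25 of 30. The cell cycle inhibitor CDKN1A was at 100.5 FPKM in siKDM1A and 22.5 in siControl2 (2.11), with 25.0 to 440 elsewhere. The secreted factor GDF15 was at 14.2 FPKM in siKDM1A and 4.13 in siControl2 (1.57) and the stress sensor SESN2 at 11.7 in siKDM1A and 3.63 in siControl2 (1.45). MDM2, the ubiquitin ligase that degrades p53, was at 28.6 FPKM in siKDM1A and 17.3 in siControl2 (0.69). The death receptor FAS was the lowest member, at 10.2 FPKM in siKDM1A and 19.2 in siControl2 (-0.85), with TRIAP1 next at 22.4 in siKDM1A and 31.7 in siControl2 (-0.48). For CDKN1A, GDF15 and SESN2 the control was below each of the other 11 libraries, and the mean level of the list was 3.96 in siKDM1A, 3.41 in siControl2 and 3.55 to 4.53 elsewhere. Among 10 CDK inhibitors and RB family genes, CDKN1A was 2-fold higher and the mitotic phosphatase CDKN3 2-fold lower, at 13.9 FPKM in siKDM1A and 31.9 in siControl2 (-1.15).

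Of 28 interferon-stimulated genes 5 were 2-fold higher, against 0.754% of all genes, and 0 were lower, with a median of 0.35 from the control. From the other 11 libraries the median was 0.03. IFI6 was at 38.2 FPKM in siKDM1A and 5.65 in siControl2 (2.56), but at 7.35 to 622 elsewhere. OASL was at 4.95 FPKM in siKDM1A and 0.831 in siControl2 (1.70), IFIT1 at 8.12 in siKDM1A and 2.10 in siControl2 (1.56), IFIT2 at 7.29 in siKDM1A and 2.22 in siControl2 (1.36) and IFI27 at 2.07 in siKDM1A and 0.424 in siControl2 (1.11). The control was again at the edge, below each of the other 11 libraries for all 5 of these genes. IRF7 and OAS3 were the lowest members, at -0.51 and -0.41. Of 12 double-stranded RNA sensors and related genes 0 were 2-fold different, with a median of 0.21. DHX58 was at 1.64 FPKM in siKDM1A and 0.542 in siControl2 (0.78) and the editing enzyme ADAR at 106 in siKDM1A and 91.8 in siControl2 (0.20).

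**Figure D4:**
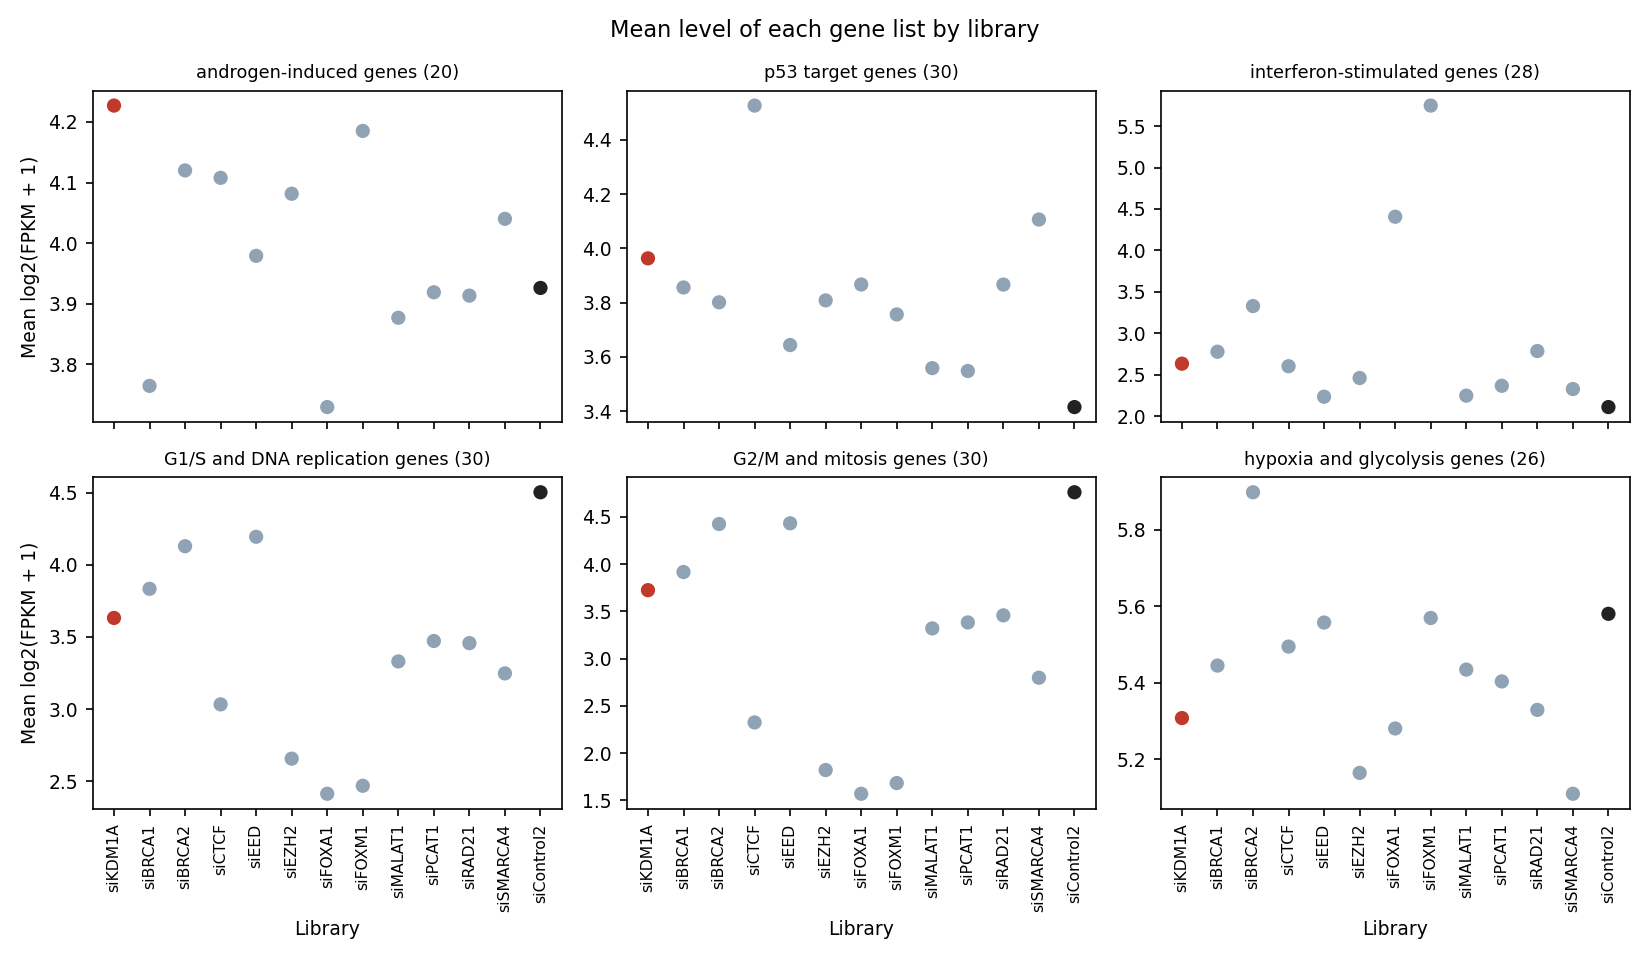
Mean log2(FPKM + 1) of the members of 6 gene lists in each of the 13 libraries, siKDM1A in red at the left, the other 11 siRNA libraries in grey and siControl2 in black at the right. The vertical axes differ between panels and do not start at 0. siKDM1A is the highest library for androgen-induced genes at 4.23, and siControl2 is the highest for G1/S and G2/M genes and the lowest for p53 target and interferon-stimulated genes.

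Of 20 immediate early genes 2 were 2-fold higher, against 0.754% of all genes, and 0 lower, with a median of 0.28 from the control and 0.02 from the other 11 libraries. These were ATF3 at 39.4 FPKM in siKDM1A and 8.76 in siControl2 (2.05) and the phosphatase DUSP1 at 11.6 in siKDM1A and 5.01 in siControl2 (1.07). ATF3 had a median of 37.8 FPKM over the other 11 libraries. For both ATF3 and DUSP1 the control was below each of those 11 libraries. Of 20 genes of the ATF4 and unfolded protein response 3 were 2-fold higher, against the same 0.754%, and 0 lower. The highest was SESN2 (1.45), which is also counted among the p53 targets above. CHAC1 was at 6.23 FPKM in siKDM1A and 2.19 in siControl2 (1.18) and DDIT3 at 68.2 in siKDM1A and 32.0 in siControl2 (1.07). For SESN2 and DDIT3 the control was below each of the other 11 libraries, and for CHAC1 only siPCAT1 was below the control, at 1.83 FPKM. XBP1, a transcription factor of secretory cells, differed by -0.75, at 52.6 FPKM in siKDM1A and 89.2 in siControl2, below the 75.3 to 168.5 elsewhere. Its level was thus the lowest of 13, while the list median was 0.19 from the control and -0.12 from the other libraries.

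Of 26 hypoxia and glycolysis genes 2 were 2-fold lower, against 1.55% of all genes, and 0 higher. Their median was -0.20 from the control and -0.09 from the other 11 libraries, and siKDM1A was the lowest of 13 for 6 of them, against 8.3% of all genes. ALDOA, an aldolase, was at 321 FPKM in siKDM1A and 680 in siControl2 (-1.08), below the 447 to 794 elsewhere. BNIP3, a mitophagy receptor induced by hypoxia, was at 56.3 FPKM in siKDM1A and 115 in siControl2 (-1.02). HK1 and HK2, which encode hexokinases, were the highest members at 0.38 and 0.31. Among 25 genes for making cholesterol and fatty acids, 1 was 2-fold lower and 0 higher, with a median of -0.15 from the control and -0.13 from the other 11 libraries. The fatty acid elongase ELOVL6 was at 29.5 FPKM in siKDM1A and 63.2 in siControl2 (-1.07) and the desaturase SCD at 168 in siKDM1A and 334 in siControl2 (-0.98). SCD was the lowest of 13 libraries. Of 16 energy expenditure and fatty acid oxidation genes 0 were 2-fold different, with a median of 0.07.

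Among 26 actin regulators 2 were 2-fold lower, against 1.55% of all genes, and 0 higher, CFL2 and the gamma-actin gene ACTG1. ACTG1 was at 352 FPKM in siKDM1A and 861 in siControl2 (-1.29), below the 550 to 1118 elsewhere. Its close relative ACTB was at 794 FPKM in siKDM1A and 1181 in siControl2 (-0.57), and reads shared by these genes and their pseudogenes make the split between them uncertain. CFL1, the main cofilin of non-muscle cells, was at 285 FPKM in siKDM1A and 354 in siControl2 (-0.31). CAP2 was the highest member at 20.2 FPKM in siKDM1A and 11.5 in siControl2 (0.77). The list median was -0.03. siKDM1A was the lowest of 13 for 4 of the 26, against 8.3% of all genes, and the highest for 2, against 6.78%. The mean list level was 5.38 in siKDM1A and 5.55 in siControl2, and 5.27 to 5.70 elsewhere.

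Histone genes had a median of -0.40 from the control and -0.36 from the other libraries. Of 19, 2 were 2-fold lower, against 1.55% of all genes, and 0 higher, and siKDM1A was the lowest of 13 for 5, against 8.3%. H2AFX, the gene of the damage-marking variant H2AX, was at 32.9 FPKM in siKDM1A and 95.04 in siControl2 (-1.50), and H2AFZ at 249 in siKDM1A and 622 in siControl2 (-1.31). Both were close to the medians of the other 11 libraries, 32.3 FPKM for H2AFX and 254 for H2AFZ. Levels of histone transcripts without a poly(A) tail depend on how RNA was selected, a step that no source used here gives. Of 10 other siRNA targets, only BRCA1 was 2-fold lower, and FOXA1 was at 132 FPKM in siKDM1A and 137 in siControl2. Of 15 housekeeping genes 0 were 2-fold different, with a median of -0.09. GAPDH was at 1338 FPKM in siKDM1A and 2307 in siControl2 (-0.79), so it was not level between the libraries.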

How the data were processed

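RNA from siRNA-transfected LNCaP-abl cells was sequenced on an Illumina HiSeq instrument from TruSeq libraries, per the labels' protocols. Reads were aligned with TopHat and quantified with Cufflinks on hg19, per the submitters' processing notes, which give no versions. The authors deposited log2 values of FPKM. Their floor was the log2 of 0.1, so 0.1 was subtracted to recover FPKM. No label gives this offset. Ranked within each library, values of equal rank differed by at most 0.0562 on the log2 scale among the 13 libraries, so they had been brought to a common distribution. No counts were used here, so depth is unknown and no counting interval is given. The floor held 1520 to 1821 entries of each library.

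Differences of log2(FPKM + 1) were taken for genes with a mean of at least 0.5 FPKM, after 759 small RNA entries were left out, which left 15780. This scale shrinks the change of low genes. Genes named are the 14 largest increases and 14 largest decreases that also differed by 0.5 from the median of the other 11 libraries in the same direction, and the 2 highest and 2 lowest members of lists with a median 0.2 from that of all genes or with 2 members called. Of 31 lists, 27 had at least 5 analysed members. The comparison, lists and members were chosen with earlier results of these data known. Every other gene named, and the promoters and motifs, were chosen with their values in view. Python 3.11.15 and pandas 2.3.3 were used, and the steps were tested on simulated data. RefSeq tables on GRCh38.p14 gave names and promoters only. Some genes that the rule names are not reported here. The alternatives are given in the closing section.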

Additional observations from a re-analysis of the deposited data

How the results depend on the processing

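Each group was 1 library, so no replicate could be left out, and no paired analysis was possible because no group had a second library. With a pseudocount of 0.1 the genes 2-fold higher than the control numbered 404 and those lower 578, those also 2-fold from the other 11 libraries 93 and 204, and those beyond all 12 others 21. The KDM1A difference was then -2.37. Keeping the small RNA entries gave 253 higher genes, 116 higher against both references, and 23 beyond all 12 others. With a mean of at least 2 FPKM, 17 were higher against both. Against the median of the other 11 in place of the control, 49 genes were higher and 87 lower. The other 25 of 37 recomputed counts and target values stayed within their limits (1.5 times, or 1 SD over the other libraries).

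Of 108 recomputed list medians, 8 changed sign, all against the median of the other 11: G2/M (0.42), G1/S (0.33), recombination (0.29), other siRNA targets (0.33), androgen-repressed (0.072), stress (-0.12), luminal (-0.10) and energy genes (-0.0018). In the same setting JmjC demethylases gave 0.11, methyltransferases 0.20, neuroendocrine genes -0.19, p53 targets 0.27 and RNA sensors 0.055. With a pseudocount of 0.1 mesenchymal genes gave 0.44 and neuroendocrine genes -0.49. The cause was not tested. Of 108 recomputed differences of single genes named by the rule, 16 moved by more than 1 SD over the other libraries and 0 changed sign.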
